A study of Mus musculus with 12 samples.

Results

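Cultured mouse cardiac fibroblasts given platelet-derived growth factor AB (PDGF-AB) were compared with the same kind of cells given AG1296, a small-molecule inhibitor of PDGF receptor kinases, at its lower dose. The comparison was defined by the sample titles: 3 arrays titled for PDGF-AB treatment against 3 titled for AG1296 at 1 uM, which is 6 of the 12 arrays of the study, and it is described across all 19938 genes measured. The cells were cardiac colony-forming fibroblasts (cCFU-F), sorted from hearts of 12-week-old male C57BL/6 mice as positive for SCA1 and PDGFRα and negative for CD31, and grown as bulk cultures at the passage the labels call P0. All groups shared this strain, sort and culture. PDGF-AB was given at 50 ng/ml. The other 6 arrays came from untreated cells (3 arrays) and from cells given AG1296 at 10 uM (3 arrays). How long the cells were treated, and in what vehicle, is not given in the sources used here, and the AG1296 group is not labelled as having received PDGF-AB. A difference between the groups can thus arise on the side of the ligand or of the inhibitor, and the untreated arrays give the level between which these sides are read. The labels do not say whether the 3 arrays of a group came from separate cultures or animals, so p-values measure the spread between these arrays, which may be technical.

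PDGF-AB is a dimer of an A and a B chain that binds and pairs PDGF receptors alpha and beta, which are receptor tyrosine kinases of mesenchymal cells. The activated receptors recruit adaptors and turn on the RAS and ERK cascade, phosphoinositide 3-kinase and phospholipase C, and the cells divide, migrate and change the matrix they secrete. AG1296 competes with ATP in the kinase pocket of PDGF receptors and also acts on the stem cell factor receptor KIT and on FGF receptors. In the heart, PDGFRα marks the resident fibroblasts and the colony-forming cells studied here.

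Values are log2 expression per gene, so that a difference of 1 is a doubling. Each is given per array or as the mean ± SD of 3 arrays. Differences are PDGF-AB minus AG1296 1 uM. "Called" means an adjusted p under 0.05 in limma, a linear model that shares information on the spread across genes. The median value of an array ran from 4.02 to 4.13 over the 12 arrays, and a gene is termed dim in a group where it lay below the array medians. Values correlated at 0.987 to 0.992 between PDGF-AB and AG1296 1 uM arrays and at 0.992 to 0.996 within the groups, and PDGF-AB replicate 1 had the lowest mean correlation with the arrays of other groups (0.99). The labelled cell type was checked against its markers. Pdgfra itself was bright (9.55 with PDGF-AB and 8.51 with AG1296 1 uM), as was the cardiac fibroblast transcription factor Tcf21 (8.40 ± 0.21 and 8.44 ± 0.04), whereas the CD31 gene Pecam1 (2.98 ± 0.02 and 3.10 ± 0.16) and the CD45 gene Ptprc (2.94 ± 0.12 and 2.79 ± 0.15) were dim in all groups. Of 27 genes listed for fibroblast identity, 5 were dim in every group. The SCA1 gene Ly6a was not analysed here.

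PDGF-AB and AG1296 1 uM arrays differed in 1039 of 19938 genes (5.21%): 454 (2.28%) were higher with PDGF-AB and 585 (2.93%) lower. The differences were mostly modest. The median called difference was 0.56 among the genes higher with PDGF-AB and -0.55 among those lower, 148 genes (0.742%) passed 2-fold, 64 of them higher and 84 lower, and 8 and 4 genes passed 4-fold. The 3 PDGF-AB values lay apart from the 3 AG1296 values in 453 of the 454 higher genes and in all 585 lower ones, against 4355 of all genes (21.8%). A lack of overlap stated below for a called gene thus describes its values and adds no separate support. At an unadjusted p under 0.05 there were 3371 genes. The share called rose with the level of the gene, from 0.602% in the dimmest of 3 equal sets of genes by mean level to 5.12% in the middle set and 9.92% in the brightest. By gene type it was 5.43% of protein-coding genes, 1.48% of long noncoding RNA genes and 1.35% of microRNA genes. Fitting only these 6 arrays gave 691 genes, of which 671 were among the 1039. The lists of pathway and marker genes described below were chosen with earlier results of these data known. The 5.21% of all genes is thus given beside their shares for scale and is not a like baseline. Of 855 measured list genes 215 were called, and 147 of these kept the call whichever of the 12 arrays was left out. The other 68 lost it without at least 1 array, and those named below are given with the arrays concerned.

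**Figure D1:**
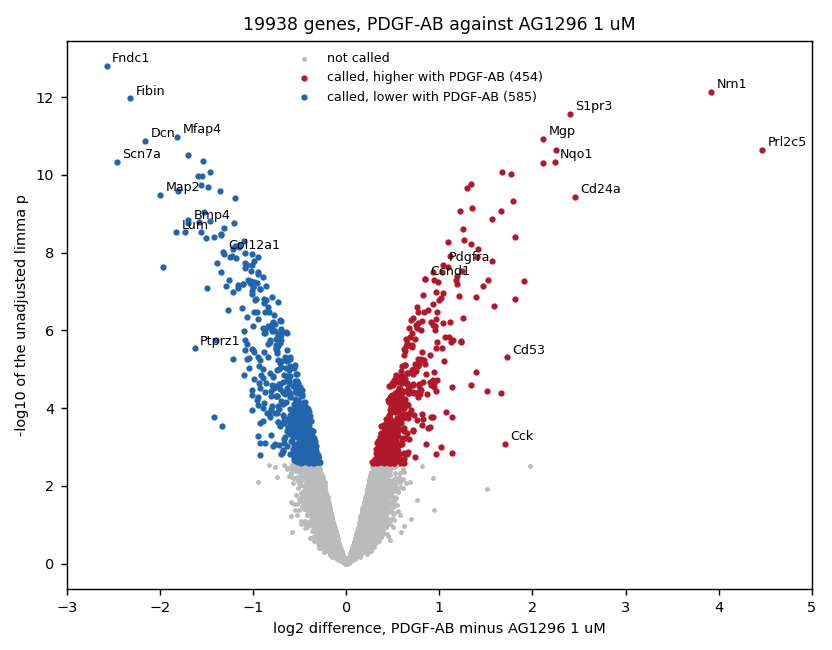
Each point is 1 of 19938 genes, with the log2 difference of PDGF-AB minus AG1296 1 uM on the x axis and -log10 of the unadjusted limma p on the y axis; coloured points are the 1039 called genes. Prl2c5 and Nrn1 lie far to the right of the other genes, at 4.47 and 3.92, and the lower side ends at Fndc1, at -2.58.

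The genes highest with PDGF-AB against the inhibitor were led by a prolactin-family gene and by Nrn1, the gene of neuritin, a small membrane-anchored protein that promotes neurite growth. Nrn1 read 8.40, 8.40 and 8.63 on the PDGF-AB arrays and 4.12, 4.78 and 4.76 on the AG1296 1 uM arrays. Its untreated values were 7.14, 7.33 and 7.20, and those at 10 uM were 5.52, 5.68 and 5.70. The PDGF-AB arrays were the highest of the 12, the untreated ones came next, both AG1296 doses lay below them, and no groups overlapped. The difference was 3.92 ± 0.15 SE, or 15.2-fold (adjusted p 7.24e-09, limma). PDGF-AB stood 1.25 above untreated (adjusted p 0.00255) and AG1296 1 uM stood at -2.67 relative to untreated (adjusted p 5.38e-07). Prl2c5, a proliferin of the prolactin family, read 6.09, 6.45 and 6.32 with PDGF-AB and 1.64, 1.96 and 1.86 with AG1296 1 uM, with untreated arrays at 4.84, 4.58 and 4.34. It was dim with both AG1296 doses and above the array medians in the other groups. The difference was 4.47 ± 0.22 SE (adjusted p 5.22e-08, limma). Prl2c5 has near-identical neighbours, and a probe set listed for Prl2c2, Prl2c3 and Prl2c4 together differed by 4.54, so which copy is expressed is uncertain.

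Of the other 13 among the 15 largest differences in this direction, S1pr3, a receptor for the lipid mediator sphingosine 1-phosphate, read 6.81, 6.74 and 6.90 with PDGF-AB and 4.57, 4.39 and 4.29 with the inhibitor, a difference of 2.40 ± 0.10 SE (adjusted p 1.32e-08, limma), with untreated arrays between at 6.16 ± 0.15. Cd24a, a small glycosylated surface protein, was dim with AG1296 1 uM (3.78 ± 0.19) and not with PDGF-AB (6.24 ± 0.28). Prkar2b, a regulatory subunit of protein kinase A, averaged 8.94 ± 0.14 and 6.68 ± 0.15, and the quinone reductase Nqo1 8.75 ± 0.01 and 6.51 ± 0.07. In these genes, all 3 PDGF-AB arrays were above all 3 AG1296 1 uM arrays, which was a condition for a place among the 15. Mgp, an inhibitor of calcification, read 8.72, 8.58 and 8.73 with PDGF-AB against 6.72, 6.51 and 6.46, and here the untreated arrays were nearer to the inhibitor, at 7.47, 7.38 and 7.28. The difference was 2.12 ± 0.10 SE (adjusted p 3.83e-08, limma). The others were Dkk2, a secreted modulator of Wnt signalling (2.12), Esm1, a secreted proteoglycan of activated endothelium (1.91), C3ar1, the receptor for complement fragment C3a (1.81), Hmga2, a chromatin architectural protein of growing mesenchyme (1.81), Serpinb2, an inhibitor of plasminogen activators (1.79), Ptgs2, the inducible prostaglandin synthase (1.77), and Cd53, a tetraspanin (1.73). Cck, the gene of the peptide hormone cholecystokinin, was least even. Its PDGF-AB values were 5.59, 5.43 and 3.41 against 3.22, 3.03 and 3.08. Its call (adjusted p 0.0219, limma) was lost when AG1296 1 uM replicate 1, 2 or 3 was left out (0.0582, 0.0780 and 0.0628). Leaving out PDGF-AB replicate 1 or 2 also lost it (adjusted p 0.106 and 0.0919). So did fitting only the 6 arrays compared, and an intensity trend with robust moderation.

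The genes lowest with PDGF-AB against the inhibitor were Fndc1, Scn7a, Fibin and Dcn, in this order. Fndc1, a fibronectin type III repeat protein, read 5.09, 4.91 and 5.08 with PDGF-AB and 7.61, 7.71 and 7.48 with AG1296 1 uM. Its untreated arrays read 5.63, 5.57 and 5.60, and those at 10 uM 7.27, 7.36 and 7.28. Both inhibitor groups lay above all PDGF-AB and untreated arrays. The difference was -2.58 ± 0.09 SE, or 5.96-fold higher with the inhibitor (adjusted p 3.12e-09, limma). Dcn, the gene of decorin, a proteoglycan that binds collagen fibrils and TGF-beta, read 7.04, 7.26 and 7.25 with PDGF-AB and 9.43, 9.47 and 9.15 with AG1296 1 uM, a difference of -2.16 ± 0.10 SE (adjusted p 3.83e-08, limma). Untreated arrays were between, at 7.69, 7.63 and 7.61. Lum, for lumican, a related proteoglycan, was dim in 3 of the groups (2.57 ± 0.19 with PDGF-AB, 2.49 ± 0.10 untreated, 2.43 ± 0.24 at 10 uM). With AG1296 1 uM it read 4.49, 4.49 and 4.21, above every other array. Npy1r, a receptor for neuropeptide Y, was likewise above every other array at 1 uM, with 4.49, 4.73 and 4.68 there and 2.91 ± 0.12 with PDGF-AB, where it was dim.

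Scn7a, an atypical sodium channel, read 4.34, 4.15 and 4.40 with PDGF-AB and 6.69, 6.85 and 6.74 with AG1296 1 uM, a difference of -2.46 ± 0.13 SE (adjusted p 6.97e-08, limma). Map2, a microtubule-associated protein best known from dendrites, differed by -2.0 ± 0.12 SE, with 6.26 ± 0.28 and 8.26 ± 0.10. Both genes were lower on every PDGF-AB array than on any AG1296 1 uM array, again a condition for a place among the 15. The rest of the 15 were Fibin, a secreted protein named for its role in fin bud initiation (-2.32), Rgs4, which shortens G protein signals (-1.97), Mfap4, a microfibril-associated protein (-1.82), the guidance factor Sema3d (-1.70), the growth factor Bmp4 (-1.70), the cysteine dioxygenase Cdo1 (-1.70), the receptor phosphatase Ptprz1 (-1.63), Lurap1l (-1.59) and the actin-linked adaptor Afap1l2 (-1.58). The call of each of these 15 genes held under every alternative in which it was tested.

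**Figure D2:**
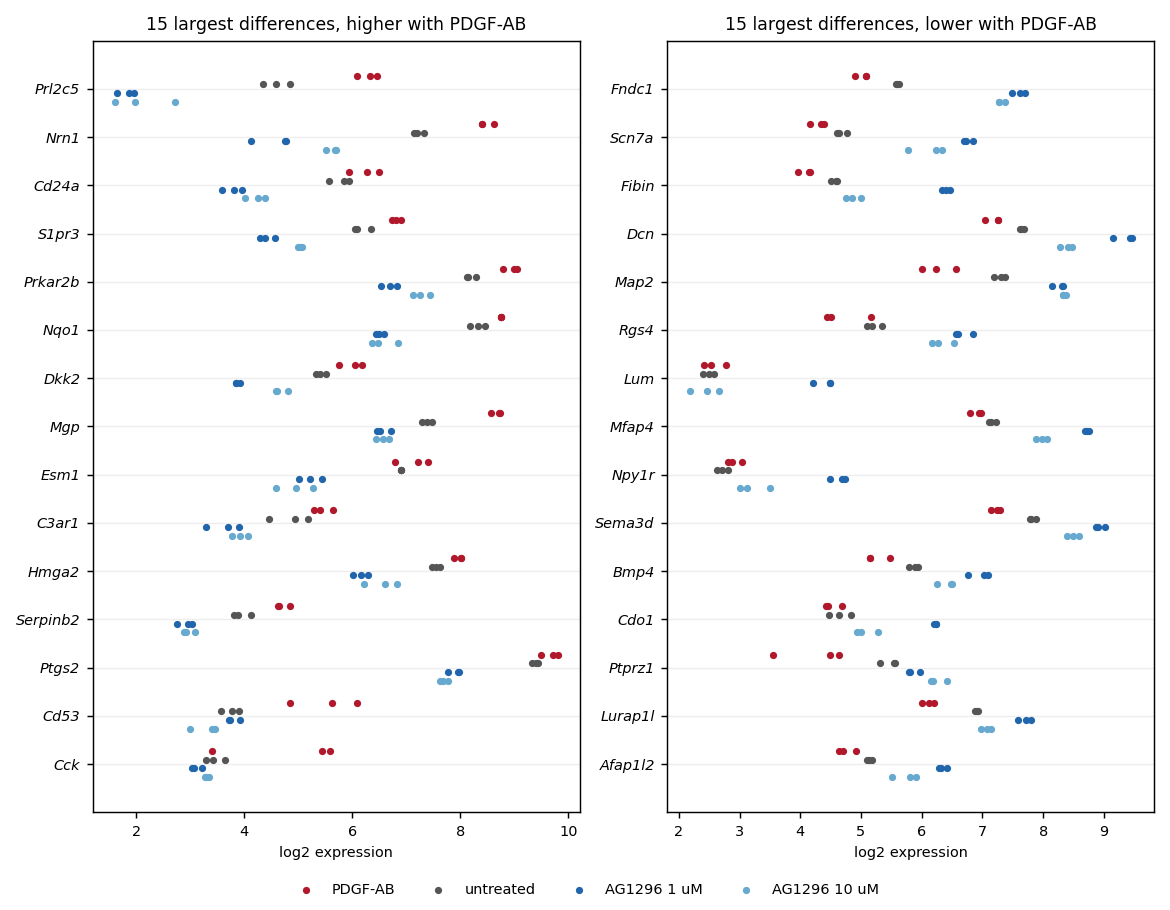
Log2 expression (x axis) on every array of the 4 groups for the genes with the largest differences, those higher with PDGF-AB in one panel and those lower in the other; each point is 1 array. PDGF-AB and AG1296 1 uM points do not overlap for Nrn1, S1pr3, Fndc1 or Dcn, and the untreated mean lies between them in 14 of the 15 genes with the largest positive difference and 13 of the 15 with the largest negative one. The genes were picked for a wide gap without overlap between PDGF-AB and AG1296 1 uM, which favours such positions.

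Among the ligands, receptors and adaptors of the PDGF system, the alpha receptor was the one member higher with PDGF-AB. Of 18 members measured, 1 was higher and 3 were lower (22.2%), with a list median of -0.18 beside 0.03 over all genes. Pdgfra read 9.42, 9.54 and 9.70 with PDGF-AB and 8.52, 8.46 and 8.55 with AG1296 1 uM, with no overlap. The difference was 1.04 ± 0.09 SE, or 2.06-fold (adjusted p 5.58e-06, limma). Untreated arrays read 9.49, 9.41 and 9.35, near those with the ligand. Relative to untreated, the difference was 0.13 with PDGF-AB (adjusted p 0.72) and -0.91 with AG1296 1 uM (adjusted p 3.84e-05). The receptor-like Pdgfrl (-0.92, adjusted p 0.000461), the ligand Pdgfd (-0.53, 0.00218) and the docking protein Gab1 (-0.57, 0.00506) were lower. For the beta receptor, Pdgfrb, the difference was -0.24 (95% interval -0.45 to -0.03, adjusted p 0.232), and for the ligands Pdgfa, Pdgfb and Pdgfc it was -0.23, 0.19 and -0.37, none of them called. Of 8 genes listed for other kinases that AG1296 may bind, limma called 0 (2 at an unadjusted p under 0.05). The list also holds Kitl, the gene of the KIT ligand and not of a kinase, which differed by 0.33 (adjusted p 0.061, limma). Kit was dim in every group (3.53 ± 0.14 and 3.51 ± 0.12), and Fgfr1 averaged 7.85 ± 0.13 and 8.02 ± 0.0 (95% interval of the difference -0.35 to 0.01). Of 11 FGF ligands, 1 passed (9.09%, against 5.21% of all genes): Fgf7, a fibroblast-made growth factor for epithelium, was higher with PDGF-AB by 0.98 ± 0.12 SE (adjusted p 0.000195, limma).

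Among targets and feedback inhibitors of ERK signalling, 9 of 19 genes were higher with PDGF-AB and 1 was lower, or 52.6% against 5.21% of all genes, and the median was 0.34 against 0.03. Dusp6, a phosphatase of ERK in the cytoplasm, read 7.49, 7.32 and 7.16 with PDGF-AB and 6.74, 6.59 and 6.67 with AG1296 1 uM. All 3 PDGF-AB arrays were above the inhibitor arrays, and the difference was 0.66 ± 0.10 SE (adjusted p 0.000875, limma). The nuclear phosphatases Dusp4 (0.63) and Dusp5 (0.70), the ERK pathway inhibitors Spred1 (0.63) and Spred3 (0.62), the Sprouty gene Spry2 (0.41), the ETS factor Etv4 (0.66) and the pleckstrin homology gene Phlda1 (0.59) were also higher. Ccnd1, cyclin D1, read 11.46, 11.33 and 11.41 against 10.57, 10.53 and 10.58, the largest difference of the list (0.84 ± 0.08 SE, adjusted p 1.08e-05, limma). Rasgrp3, an activator of RAS, was the lower one (-0.71, adjusted p 0.0018). The number higher stayed between 8 and 10 in every alternative. Spry2 was not called without AG1296 1 uM replicate 2 (adjusted p 0.0635). Spred3 was not called without PDGF-AB replicate 3 (adjusted p 0.0521).

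Genes first induced after growth factor addition were mixed. Of 29 immediate early genes, 6 were higher and 1 was lower (24.1%, against 5.21% of all genes), with a median of 0.09. Ptgs2 read 9.50, 9.72 and 9.80 with PDGF-AB and 7.98, 7.96 and 7.77 with AG1296 1 uM, apart on every array (1.77 ± 0.10 SE, adjusted p 1.11e-07, limma). The AP-1 subunit Fosl1 (0.98), the urokinase receptor Plaur (0.75), the orphan nuclear receptors Nr4a1 (0.56) and Nr4a3 (0.38) and the zinc finger factor Klf10 (0.39) were the others higher. Fos, the first AP-1 subunit induced by growth factors, was lower (-0.65 ± 0.15 SE, adjusted p 0.0164), with 4.67, 5.39 and 4.98 against 5.81, 5.55 and 5.64. For Egr1 the difference was -0.01 (95% interval -0.19 to 0.16), and for Myc 0.07 (-0.21 to 0.35). Of 18 genes controlled by phosphoinositide 3-kinase through FOXO factors, 3 were higher with PDGF-AB and 0 lower (16.7%): the pseudokinase gene Trib2 (0.82), Pdk4 (0.56), a kinase that limits pyruvate oxidation, and Txnip (0.42), an inhibitor of thioredoxin, the last not called without AG1296 1 uM replicate 1 (adjusted p 0.0533). The list median was -0.10, and 7 of the 18 differences were above 0. The number lower was 4, beside 3 higher, when dim genes were dropped or when the moderation was robust and followed an intensity trend. It was 1 with median centring, with either replicate block or without AG1296 10 uM replicate 2, and 2 without AG1296 10 uM replicate 3. Fos was not called without AG1296 1 uM replicate 1 or PDGF-AB replicate 1 or 3 (adjusted p up to 0.0828). Klf10 was not called without any single AG1296 1 uM array, AG1296 10 uM replicate 3, PDGF-AB replicate 1 or 2, or untreated replicate 1 (adjusted p up to 0.135). Nr4a3 was not called without AG1296 1 uM replicate 2 or 3 or PDGF-AB replicate 2 or 3 (adjusted p up to 0.0658).

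Promoter sequences are shown for AP-1, the dimer of FOS and JUN proteins, because it is a main nuclear end point of ERK. The AP-1 motif TGANTCA, whose letters read the same on the opposite strand, was sought in the 250 bases before the start sites that RefSeq gives on GRCm38.p6. It was present in 36 of 470 promoters of genes higher with PDGF-AB (7.66%), in 31 of 612 of the lower genes (5.07%) and in 1158 of 19177 over all genes tested (6.04%). A promoter was at hand for 343 of the 454 higher genes and 459 of the 585 lower genes. The 3 promoters shown next are examples that hold the motif, which most promoters of higher genes did not. The last 125 bases before the start, 5′ to 3′ with the motif in capitals, are these for 3 genes that were higher with PDGF-AB: Serpinb2 from the list of matrix proteases and inhibitors, Plaur from the immediate early list and Srxn1 from the NRF2 targets.
Serpinb2 (chr1:107511298-107511422, plus strand): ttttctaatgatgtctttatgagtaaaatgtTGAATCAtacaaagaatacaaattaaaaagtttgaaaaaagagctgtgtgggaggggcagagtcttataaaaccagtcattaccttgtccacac
Plaur (chr7:24462358-24462482, plus strand): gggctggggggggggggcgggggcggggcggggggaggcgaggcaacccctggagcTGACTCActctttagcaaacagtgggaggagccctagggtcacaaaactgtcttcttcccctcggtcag
Srxn1 (chr2:152105399-152105523, plus strand): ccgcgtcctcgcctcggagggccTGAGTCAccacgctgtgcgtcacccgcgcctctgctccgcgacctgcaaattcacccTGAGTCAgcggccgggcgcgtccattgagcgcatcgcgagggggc
Serpinb2 holds the motif 94 bases before its start, Plaur 69 bases before, and Srxn1 has it at 102 and at 45 bases. Serpinb2 read 4.62, 4.85 and 4.64 with PDGF-AB and 2.76, 3.04 and 2.97 with AG1296 1 uM, where it was dim. Plaur read 7.01, 6.85 and 6.85 against 6.09, 6.22 and 6.17. Srxn1, the enzyme that repairs oxidised peroxiredoxins, read 8.51, 8.43 and 8.47 against 8.04, 7.92 and 8.08. In each of these 3 genes the PDGF-AB arrays were all above the inhibitor arrays, by 1.79, 0.75 and 0.46 on average. A match of letters is a description of the window and does not show that the factor binds there.

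Of 24 mitosis genes, 0 were higher with PDGF-AB and 1 lower (4.17%, against 5.21% of all genes), with a median of -0.04. Of 25 DNA replication genes, 0 were higher and 2 lower (8%), while the median was 0.15 against 0.03 over all genes, 19 of the 25 differences were above 0, and 9 had an unadjusted p under 0.05, against 16.9% of all genes. Mki67 differed by 0.06 (95% interval -0.20 to 0.32). Rrm1, the large subunit of ribonucleotide reductase, was lower with PDGF-AB (-0.49 ± 0.09 SE, adjusted p 0.00427, limma), as were its partner Rrm2 (adjusted p 0.0482) and the cytokinesis gene Anln (0.0369). Among 16 G1 cyclins and CDK inhibitors, 3 were higher (18.8%): Ccnd1, and the neighbouring inhibitor genes Cdkn2a (0.49) and Cdkn2b (0.45). Cdkn2b was not called without AG1296 1 uM replicate 2 (adjusted p 0.0531), and Cdkn2a was not without AG1296 1 uM replicate 1 or 3 (0.0513 and 0.0606) or PDGF-AB replicate 2 or 3 (0.0542 and 0.0649). Anln was not called without any single array of the 12 except AG1296 10 uM replicates 2 and 3, PDGF-AB replicate 2, and untreated replicate 2 (adjusted p up to 0.15). Rrm2 was not called without any single array of the 12 (adjusted p up to 0.217).

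Histone genes were examined after their values had been seen. Most of them are transcribed in S phase to package new DNA, and many are near-identical copies that an array probe may not tell apart. Of 34 histone genes with a probe set of their own, 14 were higher with PDGF-AB and 0 lower (41.2%, against 5.21% of all genes), with a median difference of 0.35. H2bc18, a copy of histone H2B, read 6.26, 6.51 and 6.16 with PDGF-AB and 5.34, 5.46 and 5.42 with AG1296 1 uM (0.91 ± 0.10 SE, adjusted p 7.61e-05, limma), and H1f5, a linker histone, read 9.47, 9.58 and 9.41 against 9.0, 9.04 and 8.94 (adjusted p 0.00362). Neither gene's groups overlapped. H4c6 had the largest difference (1.01) and was uneven, with 7.57, 8.24 and 7.44 against 7.05, 6.92 and 6.23 (adjusted p 0.0246, and 0.0946 at most without AG1296 1 uM replicate 3 or PDGF-AB replicate 2). H2ax, a histone variant of DNA repair, differed by -0.01 and was not called. Untreated arrays of H2bc18 read 6.22, 5.99 and 6.10, near those with PDGF-AB. Relative to untreated, 0 of the 34 genes were called with PDGF-AB by limma (7 at an unadjusted p under 0.05) and 9 with AG1296 1 uM, all 9 lower. The number higher was 10 to 14 over the alternatives, lowest without PDGF-AB replicate 2 and with only the 6 arrays compared, and the number lower was 0, or 1 when dim genes were dropped or when the moderation was robust and followed an intensity trend.

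Of 13 small leucine-rich proteoglycans, which coat collagen fibrils and bind growth factors, 6 were lower and 0 higher (46.2%, against 5.21% of all genes). They were Dcn, Lum, Prelp (-1.42), Aspn (-1.40), Ogn (-1.21) and Fmod (-0.68), and the list median was -0.26. Ogn, osteoglycin, read 6.88, 7.60 and 7.41 with PDGF-AB and 8.43, 8.76 and 8.34 with AG1296 1 uM, and Aspn, asporin, read 4.89, 5.33 and 4.71 against 6.43, 6.56 and 6.15. Neither gene's groups overlapped. Biglycan, Bgn, was bright and did not pass (11.20 ± 0.07 and 11.41 ± 0.05, 95% interval of the difference -0.39 to -0.03). Of 16 fibrillar and interstitial collagens, 5 were lower and 0 higher (31.2%): the fibril-associated Col12a1 (-1.32) and Col14a1 (-0.71), the fibril-nucleating Col11a1 (-0.95) and Col5a2 (-0.64), and the short-chain Col8a1 (-0.65). The list median was -0.06, and the number higher was up to 3 under the alternatives (3 with dim genes left out, 2 with a fixed replicate block, and 1 without AG1296 1 uM replicate 3 or PDGF-AB replicate 1, among others). Col12a1 read 8.45, 8.48 and 8.81 with PDGF-AB and 9.94, 9.89 and 9.88 with AG1296 1 uM, apart on all arrays (adjusted p 3.3e-06, limma). The chains of the main fibrils did not pass: the difference was -0.32 for Col1a1 (adjusted p 0.109), 0.03 for Col1a2 and -0.01 for Col3a1.

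Elastic fibre genes were split, with 5 of 16 lower and 2 higher (43.8%, against 5.21% of all genes). Fbln5, fibulin 5, which links elastin to cells, read 8.75, 8.84 and 8.88 with PDGF-AB and 9.87, 9.73 and 9.92 with AG1296 1 uM (-1.01 ± 0.08 SE, adjusted p 3.56e-06, limma). Mfap4, Svep1 (-1.46), Ltbp2 (-0.88) and Mfap5 (-0.50) were lower as well, whereas Ltbp1 (0.58), which holds latent TGF-beta in the matrix, and Mfap2 (0.34) were higher. Of 23 matricellular proteins and matrix glycoproteins, 4 were higher and 5 lower (39.1%). Mgp, Spon2 (1.19), Tnc (0.67) and Thbs1 (0.47) were the higher ones. Fndc1, Cthrc1 (-1.16), Postn (-0.72), Thbs2 (-0.60) and Sparc (-0.41) were the lower ones. Postn, periostin, a product of activated cardiac fibroblasts, read 9.58, 9.77 and 9.71 with PDGF-AB against 10.34, 10.57 and 10.32, while tenascin C, Tnc, read 9.03, 9.12 and 9.20 against 8.42, 8.50 and 8.41. The thrombospondins thus lay on opposite sides, Thbs1 higher (adjusted p 0.00159) and Thbs2 lower (adjusted p 0.000629). Fn1, fibronectin, was not called (-0.25, adjusted p 0.277). Mfap2 was not called without any single AG1296 1 uM array or PDGF-AB replicate 1 or 2 (adjusted p up to 0.105).

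Genes that process and crosslink collagen included 4 of 18 lower and 2 higher (33.3%). Lox, lysyl oxidase, read 10.67, 10.98 and 10.91 with PDGF-AB and 11.92, 11.96 and 11.88 with AG1296 1 uM, and Plod2, a collagen lysyl hydroxylase, read 9.62, 10.13 and 9.93 against 10.99, 11.11 and 10.95. The inhibitor arrays were higher throughout for both (-1.07 ± 0.09 SE and -1.13 ± 0.12 SE, adjusted p 5.71e-06 and 3.8e-05, limma). The prolyl hydroxylase subunit P4ha1 (-0.48) and the collagen chaperone Serpinh1 (-0.42) were lower as well, and the procollagen protease Tll1 (1.25) and the oxidase Loxl4 (0.46) higher. The number lower was 8 with dim genes left out and 7 with an intensity trend and robust moderation. In the basement membrane list, 1 of 14 was higher, the linker nidogen 1, Nid1, by 0.85, and 2 lower, the laminin chains Lama2 (-0.94) and Lama4 (-0.80), or 21.4% in all. Of 25 matrix proteases and inhibitors, 5 were higher and 4 lower (36%). The plasminogen activators Plau (1.24) and Plat (0.62), their inhibitor Serpinb2, stromelysin Mmp3 (0.68) and Adam12 (0.70) were higher. The aggrecanase Adamts5 (-1.35), Adamts1 (-0.80), the metalloprotease inhibitor Timp3 (-1.10) and gelatinase Mmp2 (-0.36) were lower. Plau, urokinase, read 6.40, 6.69 and 6.49 with PDGF-AB and 5.50, 5.51 and 4.87 with AG1296 1 uM, and Timp3 read 9.74, 9.61 and 9.68 against 10.86, 10.76 and 10.71. Loxl4 was not called without AG1296 1 uM replicate 2 or PDGF-AB replicate 1 (adjusted p up to 0.0704). Mmp2 was not called without AG1296 1 uM replicate 1 or 3 or PDGF-AB replicate 2 or 3 (adjusted p up to 0.129). Mmp3 was not called without AG1296 1 uM replicate 1 or 3 or PDGF-AB replicate 1 or 2 (adjusted p up to 0.0712).

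**Figure D3:**
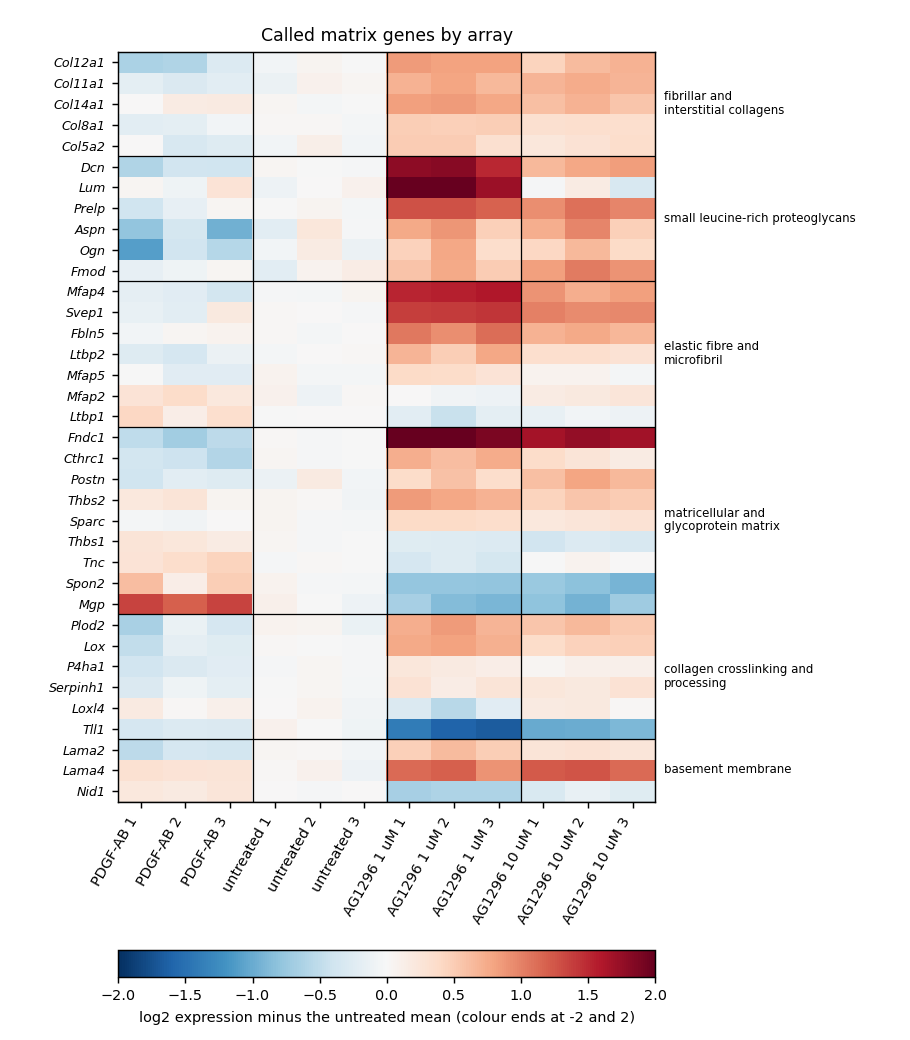
Colour shows the log2 expression of each called matrix gene (rows) on each of the 12 arrays (columns) minus the mean of the untreated arrays, with the colour scale ending at -2 and 2. The AG1296 1 uM columns are mostly above untreated and the PDGF-AB columns mostly at or below it, with Mgp and Spon2 among the rows that go the other way.

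Several ligands of the TGF-beta and BMP family were lower with PDGF-AB. Of 27 members of the pathway, 8 were lower and 1 was higher (33.3%, against 5.21% of all genes), with a median of 0.02. Bmp4 read 5.15, 5.15 and 5.48 with PDGF-AB and 7.02, 7.10 and 6.76 with AG1296 1 uM, with untreated arrays at 5.89, 5.94 and 5.80. All inhibitor arrays lay above all arrays with the ligand (-1.70 ± 0.12 SE, adjusted p 8.89e-07, limma). The ligands Bmp6 (-1.47), Tgfb2 (-1.35), Gdf6 (-1.06) and Tgfb3 (-0.74), the activin-binding proteins Fst (-1.09) and Fstl3 (-0.43) and the transcriptional brake Skil (-0.39) were lower as well. Grem1, a secreted antagonist of BMPs, was the higher one, with 3.71, 4.09 and 3.29 against 2.65, 2.29 and 2.76 (1.13 ± 0.18 SE, adjusted p 0.00163, limma). By its means Grem1 was dim in both groups. Of 16 targets of YAP and SRF, 4 were lower and 0 higher (25%): Ccn5 (-1.31), Tgm2 (-0.87), Lats2 (-0.60) and Ccn2 (-0.31). Of 14 contractile and myofibroblast genes, 1 was lower (7.14%, near the 5.21% of all genes), the actin crosslinker Actn1 (-0.44). At an unadjusted p under 0.05 in limma there were 7 of the 14, against 16.9% of all genes. The median of this list was -0.13. Acta2, smooth muscle actin, averaged 12.46 ± 0.02 with PDGF-AB and 12.60 ± 0.06 with AG1296 1 uM (95% interval of the difference -0.31 to 0.03). Skil was not called without any single AG1296 1 uM array or PDGF-AB replicate 1 (adjusted p up to 0.113). Fstl3 was not called without any single AG1296 1 uM array, AG1296 10 uM replicate 1, PDGF-AB replicate 2 or 3, or untreated replicate 2 (adjusted p up to 0.138). Ccn2 was not called without any single array of the 12 except AG1296 10 uM replicate 3 (adjusted p up to 0.152).

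Of the inhibitors of Wnt signalling that were called, all but Dkk2 were lower with PDGF-AB. Of 18 measured, 6 were lower and 1 higher (38.9%, against 5.21% of all genes), with a median of -0.13. Dkk2 read 6.18, 5.75 and 6.06 with PDGF-AB and 3.92, 3.85 and 3.85 with AG1296 1 uM, with untreated arrays at 5.39, 5.51 and 5.33, and no groups overlapped. It was dim with AG1296 1 uM. The soluble Frizzled-related proteins Sfrp1 (-0.87), Sfrp2 (-1.34), Sfrp4 (-0.81) and Frzb (-0.87), the receptor-binding Apcdd1 (-1.02) and the Dishevelled-binding Nkd2 (-0.36) were lower. Sfrp2 was uneven, with 3.70, 4.54 and 4.91 against 5.64, 5.78 and 5.74. Of 25 Wnt ligands, receptors and targets, 6 were lower and 0 higher (24%), but the count lower was 1 to 3 when any 1 of the 6 arrays compared was left out. Fzd4, a Frizzled receptor, was the member with the largest difference (-0.71 ± 0.09 SE, adjusted p 0.000204, limma). Nkd2 was not called without any single PDGF-AB array, AG1296 1 uM replicate 1 or 2, or AG1296 10 uM replicate 1 (adjusted p up to 0.134).

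Secreted growth and guidance factors lay on both sides. Of 21 growth and angiogenic factors, 3 were higher and 5 lower (38.1%). Hgf, hepatocyte growth factor, read 4.71, 4.79 and 4.33 with PDGF-AB and 3.05, 3.17 and 3.07 with AG1296 1 uM, where it was dim (1.52 ± 0.14 SE, adjusted p 1.08e-05, limma). Igf1 went the other way, with 5.46, 5.59 and 5.65 against 7.22, 7.15 and 7.01 (-1.56 ± 0.09 SE, adjusted p 1.71e-07, limma). Neither gene's arrays overlapped between the groups. Esm1 and Angpt2 (0.82) were also higher, and the lymphatic factors Vegfc (-0.90) and Vegfd (-0.84), the TAM receptor ligand Gas6 (-0.94) and the endothelin gene Edn1 (-1.0) were lower; 5 were higher without PDGF-AB replicate 1. For Vegfa the difference was 0.09 (95% interval -0.12 to 0.29). Of 11 IGF binding proteins and receptors, 4 were lower and 0 higher (36.4%), among them Igfbp2 (-1.35), Igfbp3 (-0.82) and the receptor Igf1r (-0.54). Igfbp7 was the fourth (adjusted p 0.0436). Igfbp7 was not called without any single array of the 12 except AG1296 10 uM replicate 3 (adjusted p up to 0.144).

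Of 29 genes of axon guidance and neural growth, 8 were higher and 7 lower (51.7%, median 0.01). Class 3 semaphorins, secreted repellents that bind neuropilins, were split: Sema3a read 6.36, 6.46 and 6.54 with PDGF-AB and 4.74, 5.14 and 4.80 with AG1296 1 uM, whereas Sema3d read 7.14, 7.25 and 7.29 against 8.88, 9.02 and 8.90. Sema3e was higher (0.58) and Sema3c lower (-0.83). The neuropilin Nrp2 (0.70), the plexin Plxna2 (0.50), the ephrin Efnb2 (0.65), Sema5a (0.93) and the growth cone protein Gap43 (0.71) were higher along with Nrn1. The repellent Slit2 (-0.44) and its receptor Robo1 (-0.52), the adhesion molecule Ncam1 (-0.75), Map2 and Ptprz1 were lower. Of 25 chemokines, cytokines and their adhesion partners, 2 were higher and 2 lower (16%). Cxcl12, which recruits cells that carry CXCR4, read 7.14, 7.28 and 7.16 against 5.43, 5.63 and 5.50 (1.67 ± 0.09 SE, adjusted p 1.03e-07, limma), and untreated arrays lay between at 6.62 ± 0.11. Vcam1 (0.49) was higher, and Icam1 (-0.75) and the cytokine Lif (-0.68) were lower. Plxna2 was not called without AG1296 1 uM replicate 1 or PDGF-AB replicate 2 or 3 (adjusted p up to 0.0943). Slit2 was not called without any single PDGF-AB array or AG1296 1 uM replicate 1 or 2 (adjusted p up to 0.143). Gap43 was not called without PDGF-AB replicate 1 (adjusted p 0.0566).

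Of 29 receptors and enzymes of lipid mediator signalling and G protein regulators, 5 were higher with PDGF-AB and 3 lower (27.6%, median 0.11). Besides S1pr3 and Ptgs2, these were Pla2g4a, the phospholipase that frees arachidonic acid, with 7.58, 7.83 and 7.84 against 6.42, 6.53 and 6.28, the receptor S1pr1 (0.97) and the G protein regulator Rgs16 (1.25). Rgs4 lay opposite to Rgs16, with 5.16, 4.50 and 4.43 against 6.56, 6.84 and 6.60, and the thrombin receptor F2r (-0.47) and Npy1r were also lower. Of 28 ion channels, 1 was higher, Trpc6 (0.65), and 5 lower, Scn7a, Kcne4 (-0.95), Kcnt2 (-0.95), Kcnj15 (-0.50) and Trpv2 (-0.44), or 21.4% in all. Among 24 integrins and cadherins, 3 were higher and 5 lower (33.3%). The higher ones were the vitronectin and fibronectin receptor chains Itgb3 (0.86) and Itga5 (0.53) and Cdh13 (0.78). The lower ones were the collagen receptor chains Itga1 (-0.99), Itga2 (-0.53) and Itga11 (-0.92) and the chains Itgb5 (-0.35) and Itgb8 (-0.42). The number lower was 2 without AG1296 1 uM replicate 1 and 3 without AG1296 1 uM replicate 2 or 3, AG1296 10 uM replicate 1 or PDGF-AB replicate 2 or 3. Itga2 was not called without AG1296 1 uM replicate 1 (adjusted p 0.056). Itgb5 was not called without any single array of the 12 except AG1296 10 uM replicate 3, PDGF-AB replicate 1, and untreated replicates 1 and 3 (adjusted p up to 0.143). Itgb8 was not called without any single array of the 12 except AG1296 10 uM replicates 2 and 3 and untreated replicates 2 and 3 (adjusted p up to 0.173). Trpc6 was not called without any single AG1296 1 uM array or PDGF-AB replicate 2 or 3 (adjusted p up to 0.149). Trpv2 was not called without AG1296 1 uM replicate 1 or 3 or PDGF-AB replicate 2 or 3 (adjusted p up to 0.144).

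Among stress and metabolic programmes, 8 of 20 targets of the oxidant sensor NRF2 were higher with PDGF-AB and 1 lower. That is 45.0%, against 5.21% of all genes, with a list median of 0.23. Nqo1 read 8.75, 8.76 and 8.75 with PDGF-AB and 6.50, 6.59 and 6.45 with AG1296 1 uM, with untreated arrays at 8.33, 8.46 and 8.18, and the AG1296 1 uM arrays lay below both (2.24 ± 0.12 SE, adjusted p 6.97e-08, limma). The other 7 were within 0.37 to 0.50: Gsta4, Cbr3, Srxn1, Pgd, Gclm, Gsr and Hmox1, enzymes of glutathione, NADPH and haem metabolism. Gstm1 was lower (-1.07). The number higher was 3 without AG1296 1 uM replicate 2, 5 without replicate 3 of that group, 4 without PDGF-AB replicate 3 and 5 with median centring. Of 9 targets of the aryl hydrocarbon receptor, 3 were higher and 1 lower (44.4%). Cyp1b1 read 9.98, 10.12 and 10.10 against 8.85, 8.83 and 8.84 (1.23 ± 0.08 SE, adjusted p 5.34e-07, limma), Nqo1 belongs here too, and the call of Ahr itself (0.37) was lost without AG1296 1 uM replicate 2 or 3 (adjusted p 0.133 and 0.0770) or any single PDGF-AB array (0.0594, 0.0672 and 0.0806). Lurap1l was the lower one. Cyp1a1, the classical target, was dim throughout (3.24 ± 0.57 and 2.63 ± 0.18). Hmox1 was not called without any single array of the 12 except PDGF-AB replicate 2 (adjusted p up to 0.162). Gclm was not called without any single AG1296 1 uM array or PDGF-AB replicate 2 or 3 (adjusted p up to 0.0869). Gsr was not called without AG1296 1 uM replicate 2 or PDGF-AB replicate 3 (adjusted p up to 0.0748). Pgd was not called without AG1296 1 uM replicate 2 (adjusted p 0.0588). Gsta4 was not called without any single array of the 12 except AG1296 1 uM replicate 1, AG1296 10 uM replicate 3, and PDGF-AB replicate 1 (adjusted p up to 0.202).

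Of 26 genes of ATF4 and the unfolded protein response, 7 were lower and 0 higher (26.9%, median -0.23). Trib3, a pseudokinase induced by amino acid and endoplasmic reticulum stress, read 5.67, 6.0 and 6.08 with PDGF-AB and 6.72, 6.59 and 6.81 with AG1296 1 uM, and the leucine transporter Slc7a5 read 8.76, 8.75 and 8.59 against 9.52, 9.32 and 9.53. Both were lower on all PDGF-AB arrays (-0.79 ± 0.12 SE and -0.76 ± 0.10 SE, adjusted p 0.00105 and 0.000218, limma). Vldlr (-0.67), the serine synthesis enzyme Psph (-0.43), the hormone Stc2 (-0.40), the asparagine synthetase Asns (-0.40) and Herpud1 (-0.36) were the others. Atf4 itself (-0.27, adjusted p 0.1), Ddit3 (-0.40, 0.117) and the chaperone Hspa5 (-0.25, 0.101) were not called. The number lower was 4 without AG1296 1 uM replicate 3 and 11 when dim genes were dropped or when limma's moderation was robust and followed an intensity trend. ATF4 binds the C/EBP-ATF element, which was searched here by the letters TGATGNAA, or TTNCATCA on the opposite strand. It was in 513 of 19177 promoters (2.68%), in 3.40% of those of genes higher with PDGF-AB and in 2.29% of those of lower genes. Of the 7 genes, 6 had a promoter at hand and 3 held the motif, Asns, Herpud1 and Vldlr. The Asns and Herpud1 promoters are shown because they hold it within 125 bases of the start, with the motif in capitals.
Asns (chr6:7693210-7693334, minus strand): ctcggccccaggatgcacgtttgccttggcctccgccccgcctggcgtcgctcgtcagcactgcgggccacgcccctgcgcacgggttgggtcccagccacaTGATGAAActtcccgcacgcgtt
Herpud1 (chr8:94386304-94386428, plus strand): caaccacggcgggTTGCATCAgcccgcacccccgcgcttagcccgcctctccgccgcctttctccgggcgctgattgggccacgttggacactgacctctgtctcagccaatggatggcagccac
Asns read 9.95, 9.96 and 9.99 with PDGF-AB and 10.36, 10.33 and 10.41 with AG1296 1 uM, and Herpud1 read 8.27, 8.09 and 8.29 against 8.69, 8.47 and 8.58. The PDGF-AB values of both genes were all below the AG1296 values. Psph was not called without AG1296 1 uM replicate 3 (adjusted p 0.0526). Herpud1 was not called without AG1296 1 uM replicate 1 or 3 or PDGF-AB replicate 2 (adjusted p up to 0.149). Stc2 was not called without any single AG1296 1 uM array or PDGF-AB replicate 2 or 3 (adjusted p up to 0.144).

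**Figure D4:**
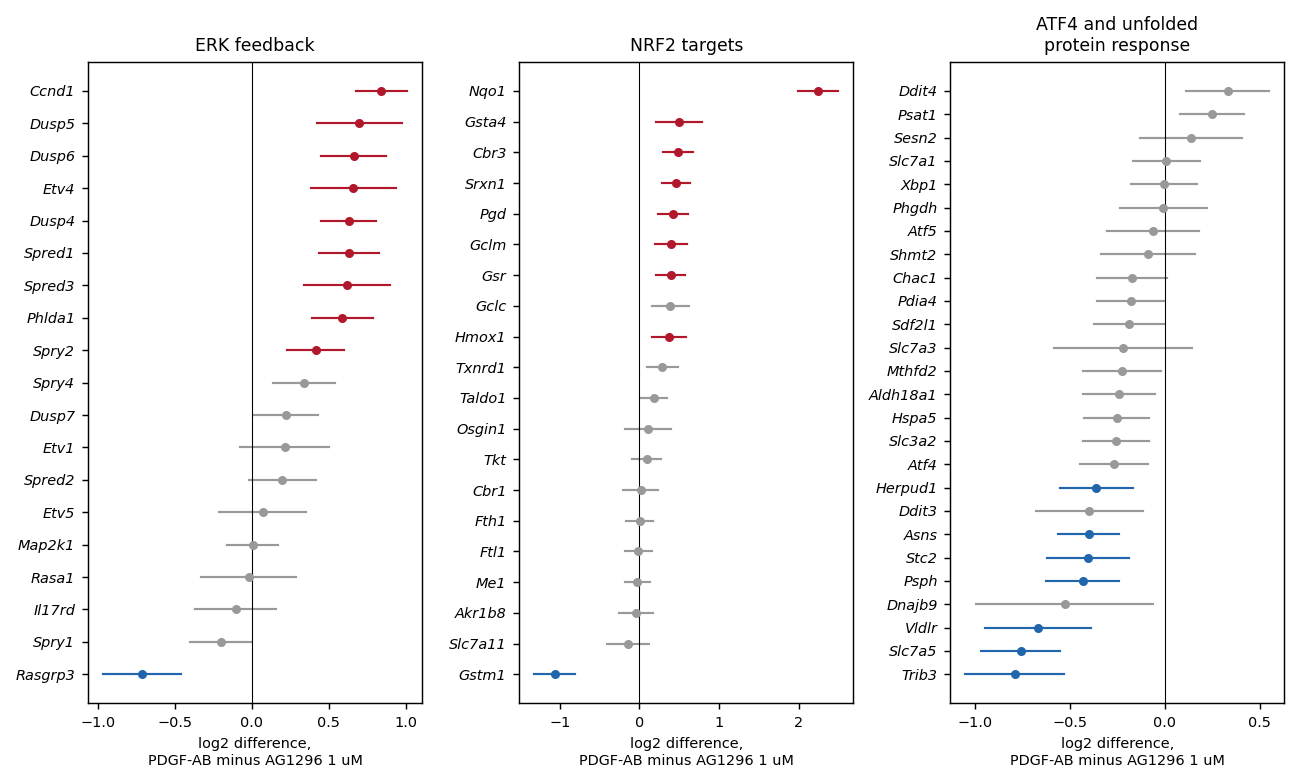
Log2 difference of PDGF-AB minus AG1296 1 uM (x axis) with its 95% interval for the members of the ERK feedback, NRF2 target and ATF4 lists, 1 panel each, sorted by difference; coloured points are called genes and grey ones are not, and the line at 0 marks no difference. Ccnd1 (0.84) and Nqo1 (2.24) lie to the right of it and Rasgrp3 (-0.71), Gstm1 (-1.07) and Trib3 (-0.79) to the left, and Atf4 was not called.

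Metabolic lists are given beside the 5.21% called over all genes. Of 19 sterol synthesis genes, 2 were higher (10.5%), Hmgcs1 (0.41) and Hsd17b7 (0.41). In the fatty acid list, 1 of 13 was higher, the desaturase Scd2 (0.44, adjusted p 0.00756), and 2 were lower, the carboxylase Acaca (-0.31) and the desaturase Fads2 (-0.34), or 23.1% in all. Of 13 glycolysis genes, 1 was higher (7.69%), the glucose transporter Slc2a1 (0.43), not called without AG1296 1 uM replicate 2 (adjusted p 0.0505). Of these 13, 6 had an unadjusted p under 0.05 in limma, against 16.9% of all genes, and 11 differences were above 0. In the oxidative phosphorylation list 1 of 20 was lower (5%), the succinate dehydrogenase subunit Sdha (-0.32). Of 11 ribosomal protein genes limma called 0 (0 at an unadjusted p under 0.05). Over all 364 solute carrier genes, 12 were higher and 14 lower (7.14%). Of 13 p53 targets, 0 were higher and 2 lower (15.4%), Perp and Gadd45a, with calls lost without AG1296 1 uM replicate 1 or PDGF-AB replicate 2 (adjusted p 0.107 and 0.0775 for Perp, 0.144 and 0.105 for Gadd45a), and for Gadd45a also without AG1296 1 uM replicate 2 or PDGF-AB replicate 3 (0.106 and 0.109). Of 18 interferon response genes, Ifit3 was lower (5.40, 5.54 and 5.31 with PDGF-AB and 6.62, 6.61 and 6.47 with AG1296 1 uM, adjusted p 2.29e-06), and Ifit1 was higher (0.46, adjusted p 0.0491), or 11.1% in all. Of 9 complement genes limma called 0 (2 at an unadjusted p under 0.05). Hmgcs1 was not called without AG1296 1 uM replicate 2 or 3 or PDGF-AB replicate 3 (adjusted p up to 0.0599). Hsd17b7 was not called without any single one of the 6 arrays compared (adjusted p up to 0.0957). Acaca was not called without any single array of the 12 except AG1296 10 uM replicates 2 and 3 and PDGF-AB replicate 2 (adjusted p up to 0.139). Fads2 was not called without any single AG1296 1 uM array or PDGF-AB replicate 2 or 3 (adjusted p up to 0.134). Ifit1 was not called without any single array of the 12 except PDGF-AB replicate 1 (adjusted p up to 0.204). Sdha was not called without any single AG1296 1 uM array or PDGF-AB replicate 1 or 3 (adjusted p up to 0.111).

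Genes that mark fibroblasts lay on both sides. Of 27 fibroblast identity genes, 4 were higher and 4 lower (29.6%, median 0.08), and 5 were dim in every group. Prrx1, a homeobox factor of mesenchyme, read 9.02, 9.27 and 9.14 with PDGF-AB and 8.04, 8.08 and 8.02 with AG1296 1 uM (1.10 ± 0.09 SE, adjusted p 6.14e-06, limma), apart on every array. Pdgfra, Thy1 (0.41) and Gsn (0.33) were also higher, and Meox1 (-0.89), Islr (-0.51), Mfap5 (-0.50) and Dpp4 (-0.39) lower. The number higher was 2 without AG1296 1 uM replicate 1 or 2 or PDGF-AB replicate 1 or 3, and the number lower was 2 without AG1296 1 uM replicate 3 or PDGF-AB replicate 3. Of 16 adipogenic genes, 4 were higher and 4 lower (50%). Pparg, the master factor of fat cells, read 6.13, 6.17 and 6.07 against 5.43, 5.32 and 4.90 (0.90 ± 0.14 SE, adjusted p 0.00136, limma), and Lpl (0.74), Cebpb (0.43) and Plin2 (0.38) were higher too. Zfp521 (-1.08), an inhibitor of fat cell formation, Ebf1 (-0.43), Cebpd (-0.64) and Pdgfrl were lower, 2 of these 4 without AG1296 1 uM replicate 2. Of 16 bone and cartilage genes, Mgp was higher and the cartilage factors Sox9, Sox5 and Sox6 lower (-0.42, -0.35 and -0.33), or 25% in all. When any single AG1296 1 uM array or PDGF-AB replicate 3 was left out, 1 of these 3 was called. Thy1 was not called without any single PDGF-AB array or AG1296 1 uM replicate 1 or 2 (adjusted p up to 0.136). Gsn was not called without any single array of the 12 except PDGF-AB replicate 2 (adjusted p up to 0.186). Dpp4 was not called without AG1296 1 uM replicate 2 or 3 or PDGF-AB replicate 1 or 3 (adjusted p up to 0.12). Islr was not called without AG1296 1 uM replicate 1 or 3 or PDGF-AB replicate 2 or 3 (adjusted p up to 0.0901). Cebpd was not called without AG1296 1 uM replicate 2 or PDGF-AB replicate 1 (adjusted p up to 0.0676). Plin2 was not called without any single array of the 12 except AG1296 1 uM replicate 3 and PDGF-AB replicate 2 (adjusted p up to 0.208). Ebf1 was not called without any single AG1296 1 uM array, AG1296 10 uM replicate 1, PDGF-AB replicate 2 or 3, or untreated replicate 1 (adjusted p up to 0.141). Sox9 was not called without AG1296 1 uM replicate 2 (adjusted p 0.0534). Sox5 was not called without any single AG1296 1 uM array or PDGF-AB replicate 2 or 3 (adjusted p up to 0.137). Sox6 was not called without AG1296 1 uM replicate 1 or 3 or PDGF-AB replicate 1 or 3 (adjusted p up to 0.111).

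Markers of leukocytes, endothelium and heart muscle were mostly dim, while those of pericytes and of the epicardium were less often so. Of 19 leukocyte markers, 16 were dim in every group. The mean level of the 19 was 3.35 to 3.39 on PDGF-AB arrays, 3.24 to 3.26 with AG1296 1 uM and 3.25 to 3.29 untreated, with 2 called higher and 2 lower (21.1%). The higher ones were Cd53, with 4.84, 5.63 and 6.09 against 3.71, 3.92 and 3.74, and the complement gene C1qc (0.47). Cd53 was dim with AG1296 1 uM. The lysozyme gene Lyz2 (-0.79) and the adaptor Tyrobp (-0.34) were lower. Of 15 endothelial markers, 9 were dim in every group, the mean was 3.84 to 4.06 and 3.87 to 4.02, and 2 were lower (13.3%), the receptor gene Tek (-0.49, adjusted p 0.00907, but 0.0523 with only the 6 arrays fitted) and Eng (adjusted p 0.0473). Of 14 pericyte and mural markers, 6 were dim in every group, and 3 were higher and 0 lower (21.4%). Mcam, the adhesion molecule CD146, read 7.11, 7.14 and 6.93 against 6.08, 5.88 and 5.87 (1.12 ± 0.09 SE, adjusted p 3.85e-06, limma), Notch3 (0.54) was next, and Cspg4 (0.66) was not called without any single AG1296 1 uM array (adjusted p 0.138, 0.0749 and 0.0543) or PDGF-AB replicate 1 or 3 (0.0633 and 0.125). The mean of that list was 4.46 to 4.56 with PDGF-AB and 4.20 to 4.37 with AG1296 1 uM. Of 15 epicardial and mesothelial markers, 3 were dim in every group, and 40% were called. In that list 4 were higher, the retinoic acid enzyme Aldh1a2 (0.91), the uroplakin Upk1b (0.59), the keratin Krt19 (0.57) and Lrrn4 (0.51), and 2 were lower, the uroplakin Upk3b (-1.03) and Sema3d. The number higher was 2 without AG1296 1 uM replicate 2 or 3, PDGF-AB replicate 3, AG1296 10 uM replicate 1 or 2, or any single untreated array. Of 15 cardiomyocyte markers, 11 were dim and 1 was called (6.67%, near the 5.21% of all genes), Tnnt2, higher by 0.38. Of 8 Schwann and glial markers limma called 0 (0 at an unadjusted p under 0.05). Fewer cells of a type and less RNA per cell cannot be told apart in such bulk samples, and the part of other cells in the results was not tested. Eng was not called without any single array of the 12 except untreated replicates 1 and 3 (adjusted p up to 0.154). Tnnt2 was not called without AG1296 1 uM replicate 2 or 3 or PDGF-AB replicate 1 or 3 (adjusted p up to 0.108). Lyz2 was not called without AG1296 1 uM replicate 2 or PDGF-AB replicate 1 or 3 (adjusted p up to 0.117). C1qc was not called without any single array of the 12 except AG1296 1 uM replicate 3, AG1296 10 uM replicate 3, and PDGF-AB replicate 1 (adjusted p up to 0.217). Tyrobp was not called without any single array of the 12 except untreated replicates 2 and 3 (adjusted p up to 0.148). Krt19 was not called without any single array of the 12 except AG1296 1 uM replicate 1, AG1296 10 uM replicate 3, and PDGF-AB replicate 1 (adjusted p up to 0.145). Lrrn4 was not called without any single array of the 12 except AG1296 10 uM replicate 3 and PDGF-AB replicate 2 (adjusted p up to 0.217).

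**Figure D5:**
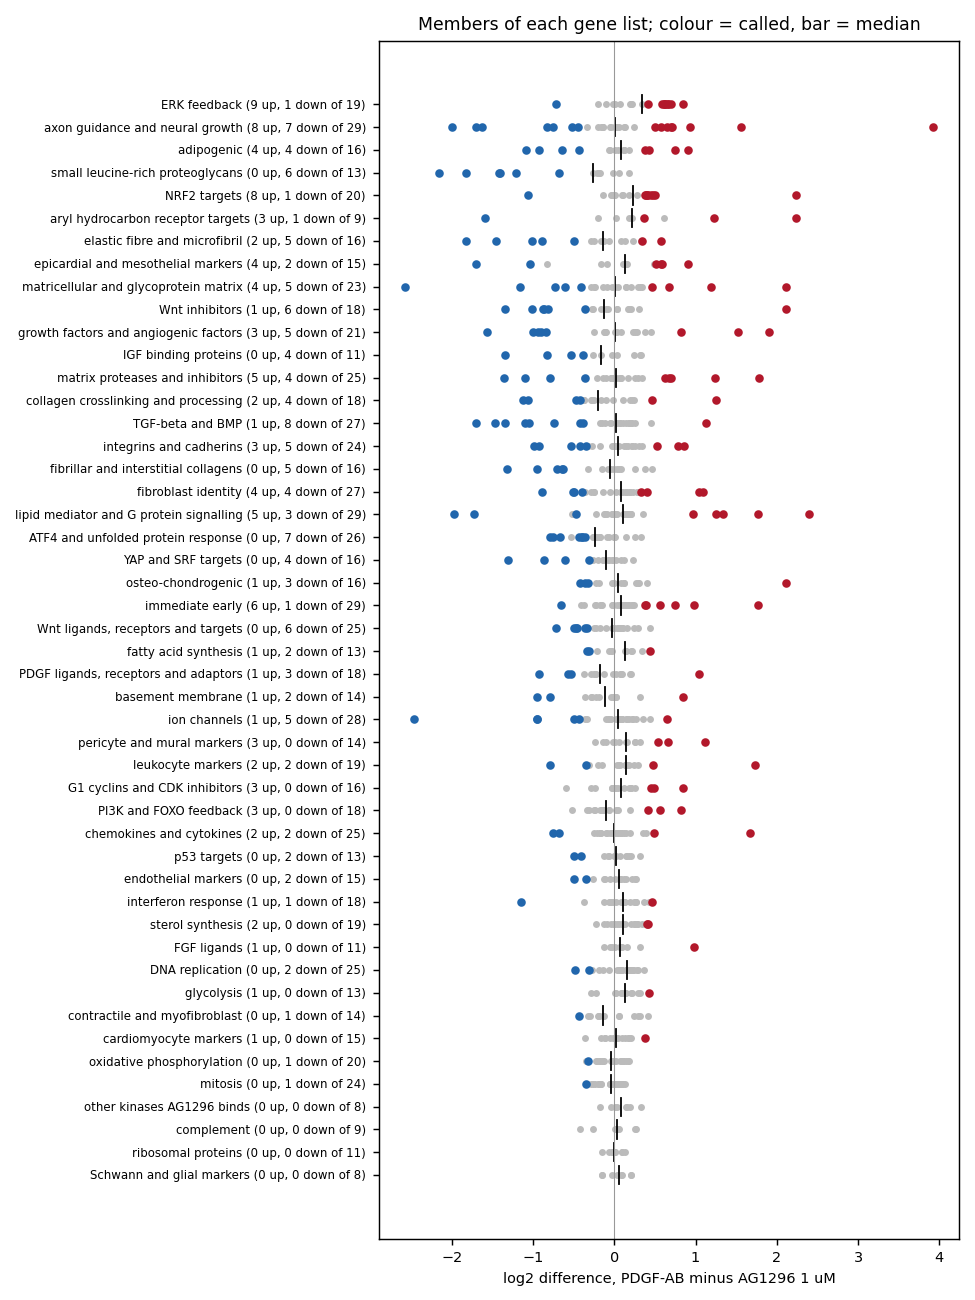
Log2 difference of PDGF-AB minus AG1296 1 uM (x axis) for the members of each gene list (rows); each point is 1 gene, coloured where called, and the bar is the list's median. The ERK feedback list has a median of 0.34 and the small leucine-rich proteoglycans one of -0.26, against 0.03 over all 19938 genes.

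Short structured RNAs were higher with PDGF-AB than with the inhibitor wherever they were called. Of 70 small nucleolar, Cajal body and other structured RNA genes, 13 were higher with PDGF-AB and 0 lower (18.6%, against 5.21% of all genes). Their median difference was 0.27. Rmrp, the RNA of an endonuclease of mitochondria and the nucleolus, read 10.46, 10.43 and 10.61 with PDGF-AB and 9.03, 9.04 and 8.89 with AG1296 1 uM. Rpph1, the RNA of ribonuclease P, read 12.75, 12.75 and 12.78 against 11.20, 11.28 and 11.61, and Rn7sk, which restrains transcription elongation, read 12.92, 13.04 and 13.02 against 12.19, 12.24 and 12.22. For these 3 RNAs the untreated arrays were near the PDGF-AB level, with Rmrp at 10.39, 10.44 and 10.43, so the AG1296 1 uM arrays stood apart. This did not hold for every called RNA. Snord15b averaged 6.31 untreated, 6.95 with PDGF-AB and 6.44 with AG1296 1 uM, and Snord104 averaged 6.04, 6.38 and 5.76. At 10 uM the arrays were uneven, with Rmrp at 9.77, 9.23 and 10.70. The difference was 1.51 for Rmrp (adjusted p 0.002), 1.40 for Rpph1 (0.000837) and 0.78 for Rn7sk (0.00045, limma). Over the 70 genes, the mean level was 4.57 to 4.79 on PDGF-AB arrays, 4.27 to 4.33 with AG1296 1 uM, 4.63 to 4.76 untreated and 4.33 to 4.69 at 10 uM. Between PDGF-AB and untreated arrays limma called 0 of the 70 (5 at an unadjusted p under 0.05), and between AG1296 1 uM and untreated arrays it called 15. RNA quality per array was not at hand, and its part in these differences was not tested. Of the 13 called RNAs, 8 kept the call whichever array was left out, and 5 lost it without at least 1: Snord49b without any single one of the 6 arrays compared (adjusted p up to 0.131); Scarna13 without AG1296 1 uM replicate 1 or PDGF-AB replicate 1 (adjusted p up to 0.0574); Snord104 without any single array of the 12 except AG1296 10 uM replicates 2 and 3 (adjusted p up to 0.18); Snord15b without any single array of the 12 except AG1296 10 uM replicates 2 and 3 (adjusted p up to 0.166); DQ267102 without any single PDGF-AB array or AG1296 1 uM replicate 2 (adjusted p up to 0.14).

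The higher dose of the inhibitor gave fewer differences from PDGF-AB than the lower one. PDGF-AB against AG1296 10 uM, which shares the PDGF-AB arrays with the comparison above, called 682 genes (3.42%), 284 higher and 398 lower, 78 of them at least 2-fold. The doses themselves differed in 75 genes (0.376%), 39 higher at 10 uM and 36 lower, 6 of them at least 2-fold. Lum differed by -1.96 at 10 uM relative to 1 uM (adjusted p 1.22e-05, limma) and did not pass against PDGF-AB there (0.14, adjusted p 0.736). Fibin (-1.53), Npy1r (-1.42), Cdo1 (-1.16) and Dcn (-0.96) were also lower at 10 uM than at 1 uM. Nrn1 (1.08), Mcam (0.83), Dkk2 (0.80), S1pr3 (0.62), Cxcl12 (0.61), Ccnd1 (0.53) and Pdgfra (0.51) were higher at 10 uM. In these 12 genes, which were chosen after their values were seen, the 10 uM mean was nearer to the PDGF-AB mean than the 1 uM mean was. For Pdgfra the arrays at 10 uM read 9.0, 9.06 and 9.01, between those at 1 uM and those with PDGF-AB. Hmox1, the haem-degrading enzyme, was farther from PDGF-AB at 10 uM, with 9.61, 9.57 and 9.54 at 10 uM, 10.21, 10.17 and 10.17 at 1 uM and 10.66, 10.34 and 10.68 with PDGF-AB (adjusted p 0.0184 between the doses, limma). The number of genes called between doses was 26, 16 and 29 without AG1296 1 uM replicate 1, 2 or 3, it was 16, 39 and 19 without AG1296 10 uM replicate 1, 2 or 3, and 49 without untreated replicate 2. With each array centred on its median, the split between doses was 21 higher and 31 lower. The dose difference of Nrn1 was not called without AG1296 10 uM replicate 3 (adjusted p 0.0518). The dose difference of Dkk2 was not called without AG1296 1 uM replicate 2 (adjusted p 0.0518). The dose difference of S1pr3 was not called without any single AG1296 10 uM array or AG1296 1 uM replicate 2 or 3 (adjusted p up to 0.0965). The dose difference of Cxcl12 was not called without AG1296 1 uM replicate 1 or 3 or AG1296 10 uM replicate 1 or 2 (adjusted p up to 0.0763). The dose difference of Ccnd1 was not called without AG1296 1 uM replicate 1 or 2 or AG1296 10 uM replicate 1 or 3 (adjusted p up to 0.072). Those of Pdgfra and Hmox1 were not called without any single array of either dose (adjusted p up to 0.134 and 0.094).

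In most called genes untreated cells lay between the groups. Their mean was between those of PDGF-AB and AG1296 1 uM in 399 of the 454 genes higher with PDGF-AB and in 488 of the 585 lower ones, against 8279 of all 19938 genes (41.5%). Called genes were picked for a gap between these groups, which makes a place between them likelier, so the 41.5% is not a like baseline. The untreated mean was nearer to PDGF-AB in 328 (72.2%) of the higher genes and 448 (76.6%) of the lower ones, against 53% of all genes. Relative to untreated cells, 66 genes were called with PDGF-AB and 639 with AG1296 1 uM, in contrasts that share the untreated arrays. Mgp was one of the genes in which the ligand side was the larger, 1.30 with PDGF-AB (adjusted p 0.000117) and -0.82 with AG1296 1 uM (0.000307). For Fndc1 the values were -0.57 (0.0143) and 2.0 (8.55e-08), for Ptgs2 0.29 (0.388) and -1.48 (1.22e-06), and for Dusp6 0.02 (0.972) and -0.64 (0.00198). In these 3 genes the untreated level was nearer to PDGF-AB than to the inhibitor.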

How the data were processed

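RNA from cCFU-F cultures was hybridised to 12 Affymetrix arrays of 1 colour, 3 per group. The authors deposited 1 log2 value per probe set and array. They used RMA, per the submitters' processing notes, which corrects background, normalizes across arrays and summarises probes, and limma, with no versions given. That the scale is log2 was taken from how far the values spread. Nothing further was normalized. Of 28853 probe sets, 21789 had 1 symbol in the platform table, 1621 had several and 5443 had none. The last 2 kinds were left out of gene tests. Where a gene had several probe sets (999 genes), its brightest by mean stood for it, leaving 19938 genes, with no filter on dim ones.

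All 12 arrays entered 1 fit in limma 3.58.1 (R 4.3.3) with a mean per group and empirical Bayes moderation (residual degrees of freedom 8, prior 5.35), adjusted by Benjamini-Hochberg over all genes at 0.05. The median residual SD was 0.15, and the 3 arrays per group limit the precision. The fit was tested on simulated data of this comparison (19938 genes, 200 of them changed, 10 draws). In these, 92.7% of differences of 1 and 43.8% of 0.5 were called, and 5.19% of calls were false. The draws had normal noise independent between arrays, and fewer changed genes than the 1039 called here. These rates thus describe the simulation and need not hold for the real calls. Genes named are the 15 largest called differences each way whose groups did not overlap, up to 4 per list by p, and set marker and pathway genes; other called list members are given by their difference. The 48 lists hold 910 genes, 855 of them measured. Members and lists were chosen with earlier results of these data known. Array replicate numbers were checked for pairing: correlations of same-numbered deviations ran from -0.03 to 0.22 between these groups and to 0.30 over all 18 pairs, 9 of them over 0.1. For no 2 groups were all 3 over 0.1, so the numbers were not taken to pair the samples. Alternatives were all probe sets, their mean per gene, dim genes left out, quantile normalization, median centring, an intensity trend with robust moderation, only the arrays compared, a replicate block, and each array left out. Promoters are RefSeq's.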

Additional observations from a re-analysis of the deposited data

Results flagged for a closer look

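Signals outside the gene-level tests are given here as values. Of 5443 probe sets without a gene symbol in the platform table, 82 differed between PDGF-AB and AG1296 1 uM at an adjusted p under 0.05 in limma, 59 higher with PDGF-AB and 23 lower. Of 1621 probe sets with several symbols, 68 differed, 52 higher and 16 lower. Of these, 24 of the higher ones and 0 of the lower ones list histone genes alone, out of 26 such probe sets. Many are copies of each other, with 6 sets of symbols among the 24, and their differences were 0.47 to 0.83. Without them, 28 were higher and 16 lower. The probe set listed for Prl2c2, Prl2c3 and Prl2c4 had a log2 difference of 4.54, beside 4.47 for the single-symbol Prl2c5. No gene is named from the other probe sets of either kind.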

How the results depend on the processing

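The 1039 genes called between PDGF-AB and AG1296 1 uM became 691 when only these 6 arrays were fitted and ranged from 696 to 1012 with single arrays left out; the other alternatives gave 918 to 1435. The 148 genes past 2-fold ranged from 128 to 165 over all alternatives, and from 142 to 165 with single arrays left out. PDGF-AB against AG1296 10 uM (682) gave 1032 with dim genes left out, 1077 with an intensity trend and robust moderation, 391 with only the 6 arrays, and 455 to 627 with single arrays left out. The dose comparison (75) gave 48 over all probe sets, 175 with dim genes left out, 209 with the trend, 14 with only the 6 arrays, and 16 to 82 with single arrays left out. With the replicate number as a block, the counts were 1132, 724 and 77 (fixed block) and 1172, 801 and 105 (random block, consensus correlation 0.09); of 3 same-numbered pairs between the groups, 1 correlated best with its own number (2 of 3 for either of the other contrasts, and 11 of 18 over all groups), which does not meet the criterion for pairing.

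Of 203 named genes, 147 were called; 116 kept the call in all of up to 21 alternatives and 31 lost it in at least 1. Of the 56 not called, 15 were called in at least 1, and 0 reversed sign. Of 48 lists, the larger count of calls changed side in 6 under at least 1 alternative: the FOXO, epicardial, fatty acid, integrin, matrix protease and bone and cartilage lists. The cause of these changes was not tested. Treatment length, vehicle and the origin of replicates were not at hand, and differences in dim genes are bounded by array background.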
